A study of Mus musculus with 46 samples.

Results

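The mouse liver 1 h after partial hepatectomy (PH, resection of 70% of the organ) was compared with liver taken at 0 h without surgery, in young mice. The comparison used the 3 arrays of young mice at 1 h after PH and the 3 young 0 h control arrays, 6 of the 46 arrays of the study, over all 12422 probe sets that are not array controls. The arrays were chosen by their labels alone. All mice were males of the CB6F1 hybrid strain. Young mice were 5 to 6 months old and came from Jackson Laboratories, while old mice, 25 to 27 months old, came from the National Institute on Aging, so age and supplier cannot be told apart. Operated mice had injected avertin and inhaled isoflurane, and the 0 h controls are labelled as having no treatment, so the comparison spans anaesthesia, laparotomy and liver removal together. The 2 young arrays at 1 h after a sham operation, the young PH arrays at 0.5 h and 2 h (3 each) and the old 0 h and 1 h PH arrays (3 each) served as side comparisons. Whole-liver RNA was read on Affymetrix mouse U74v2 arrays. The labels call the arrays replicates and do not say whether they are separate animals. The p-values below thus describe variation among these arrays, which may be technical.

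Removal of most of the liver is a classical trigger of regrowth, in which quiescent hepatocytes first turn on immediate early genes, then genes of the cell cycle. Immediate early genes are transcribed by factors already present in the cell, such as CREB, serum response factor, STAT3 and NF-kB, and many encode transcription factors (the AP-1 subunits Fos and Jun, Egr1, Atf3) or inhibitors of the same signalling chains. The remnant liver also takes over glucose supply and the acute response to injury, both of which act on hepatocyte genes within hours.

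Values are log2 expression levels, given below in the order of replicates 1, 2 and 3, and differences are 1 h minus 0 h on the log2 scale with the standard error of the difference (±) from limma. A gene is said to have risen or fallen only where limma's p-value, adjusted by Benjamini and Hochberg over all 12422 probe sets, was under 0.05. In whole liver, a lower value from fewer cells of a type and from less RNA per cell cannot be told apart. Levels of different probe sets are on no common scale and are not compared.

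The 6 arrays correlated with each other at 0.9876 to 0.9966 across probe sets, and array medians of the 46 arrays lay between 6.217 and 6.333. Of 8 defining hepatocyte genes, 7 were measured, all were highly expressed as a group (mean 11.63 to 11.73 over the 0 h arrays, 11.57 to 11.64 at 1 h) and none passed the test (2 at an unadjusted limma p under 0.05). Several arrays stood apart. The mean of the 9 bacterial hybridisation controls, which report on the array step and not on the liver, was 8.12 ± 0.32 at 1 h and 9.47 ± 0.85 at 0 h (SD, n = 3 each), a difference of -1.35 with an exact two-sided permutation p of 0.1, the smallest that 3 against 3 arrays can give, and 0.5 after adjustment over 5 control measures. The actin 3′ control probe set read 12.67, 12.59 and 10.76 at 0 h, low in replicate 3, and 12.34, 12.46 and 12.57 at 1 h. The 16 sham arrays of the study lay at 7.749 to 30.26 on the first principal component (26.85% of the variance), above every other array, of which 0 h replicate 3 came highest at 6.269. The 3 arrays at 1 h after PH lay between -12.92 and -6.224.

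At 1 h, 71 of 12422 probe sets (0.572%) differed from 0 h, 56 higher (0.451%) and 15 lower (0.121%). They named 43 genes that rose and 14 that fell. The largest rises were those of Fos, the metallothionein Mt2 and Igfbp1, a binding protein for insulin-like growth factors, each by over 4 on the log2 scale. The smallest adjusted p-values belonged to Rcan1, which rose, and Foxa2, which fell. An absolute difference of at least 1 was reached by 41 of the higher and 3 of the lower probe sets. The median difference over all probe sets was -0.03. Counted by arrays alone, all 3 arrays at 1 h lay above all 3 at 0 h in 754 probe sets (6.07%) and below them in 1573 (12.7%). The balance of calls moved with the fit. Centring each array on its own median gave 65 higher and 8 lower, while array weights, which give less weight to arrays that deviate more, gave 259 higher and 614 lower. With the mean of the bacterial controls as a covariate 20 probe sets passed (18 higher, 2 lower), and without 1 h replicate 2, 0 h replicate 2 or 0 h replicate 1 the count was 33, 40 or 44. Of the 57 genes, 26 passed in every one of the 6 fits that left out 1 array, of which 15 also passed under every other alternative that could be run for them (all but the one without cross-hybridising probe sets for Igfbp1). With the covariate 16 passed: Rcan1, Foxa2, Igfbp1, Sgk1, Nr4a1, Mt2, Dusp6, Ifrd1, C9orf72, Noct, Tiparp, Il1a, Slc25a25, Rcl1, Wdr92 and 1700017B05Rik. The other 41 did not, Fos among them (3.88, adjusted p = 0.059).

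**Figure D1:**
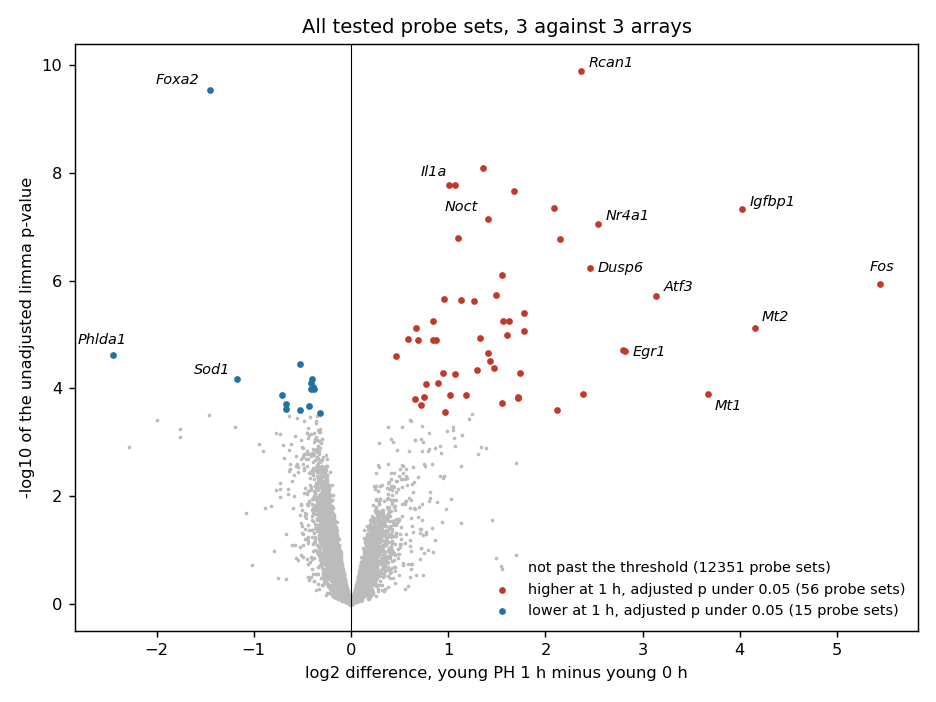
Each point is 1 of the 12422 probe sets, with the log2 difference between young liver 1 h after PH and young liver at 0 h on the horizontal axis and -log10 of the unadjusted limma p-value on the vertical axis. Red points are the 56 probe sets that were higher and blue points the 15 that were lower at adjusted p under 0.05. Fos lies farthest to the right, and Rcan1 and Foxa2 lie highest.

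**Figure D2:**
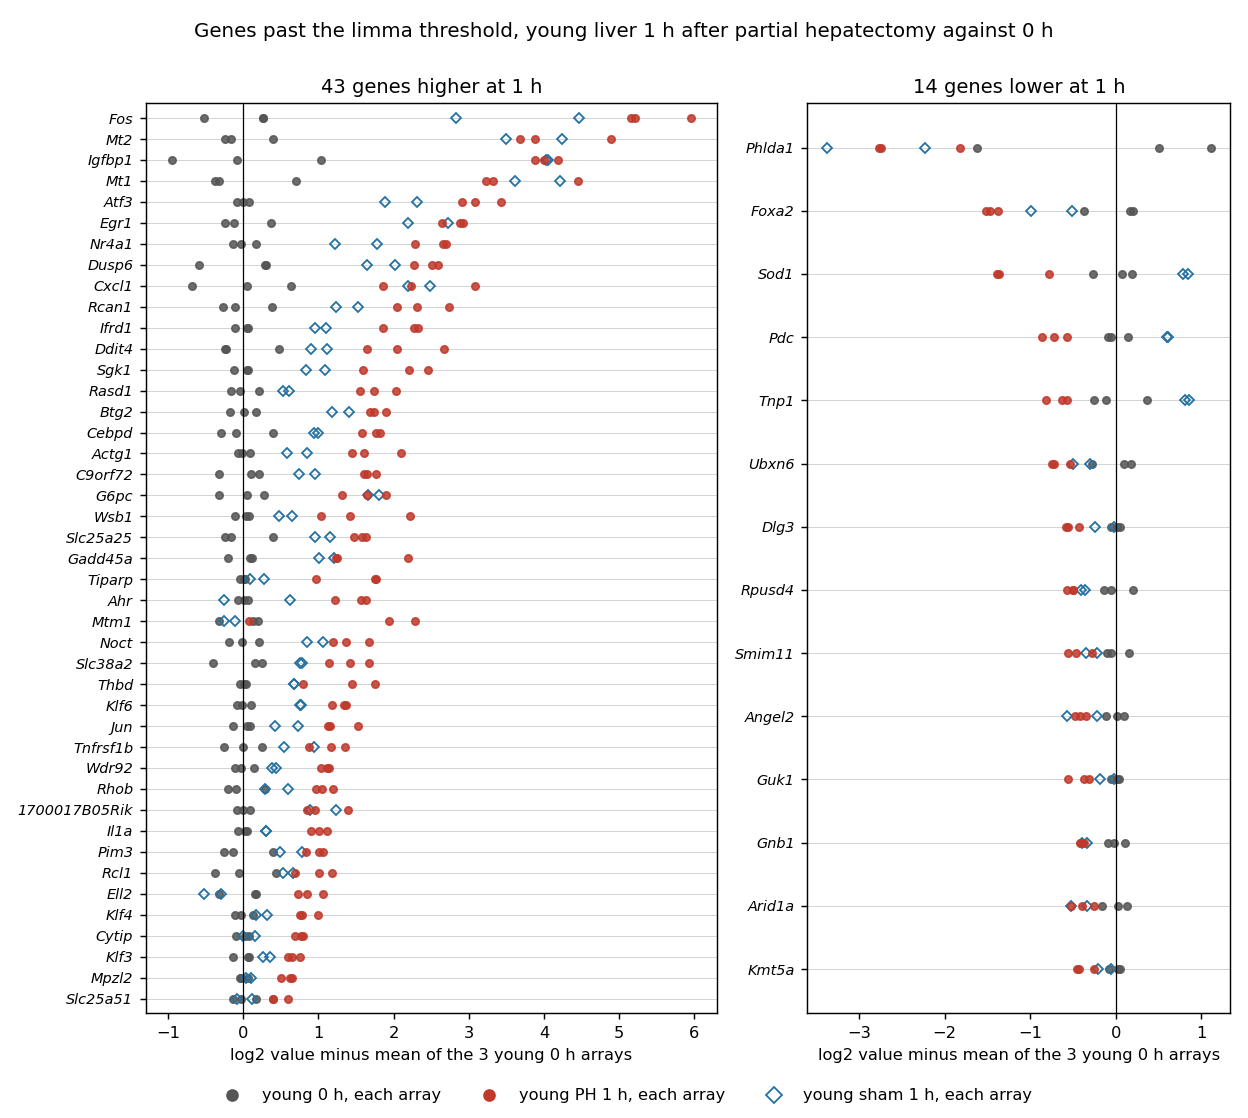
The 43 genes that rose (left) and the 14 that fell (right), 1 row per gene, plotted as the log2 value of each array minus the mean of the 3 young 0 h arrays. Grey points are the 0 h arrays, red points the arrays 1 h after PH and blue diamonds the 2 sham arrays at 1 h. Red and grey points overlap for Mtm1 alone. For Igfbp1, Mt1, Mt2, Cxcl1 and G6pc the diamonds lie among or next to the red points, and for Tiparp, Ell2 and Mpzl2 they lie beside the grey points.

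Genes of early transcription factors formed one of the 2 groups with the most calls. Of 35 measured members of the list, 8 rose and none fell, against 0.485% of the 8251 named genes that rose and 0.158% that fell. This list and those below were chosen with earlier results of these data known. Their counts therefore describe the lists and do not test them. The median of the list was 0.32, against -0.04 over all named genes. Its mean level was 6.83 to 7.07 over the 0 h arrays and 7.65 to 7.76 over the 1 h arrays. In 20 of the 35, every 1 h array exceeded every 0 h array, an order found in 6.07% of all probe sets.

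Fos, an AP-1 subunit and a classical immediate early gene, read 4.35, 4.36 and 3.56 at 0 h and 9.30, 10.05 and 9.25 at 1 h. The groups lay far apart, and 0 h replicate 3 was the lowest array. The rise was 5.44 ± 0.92 (adjusted p = 0.00096), while a second Fos probe set moved by 0.06. Jun, its partner in AP-1, was at 6.81, 6.59 and 6.77 before and at 8.26, 7.85 and 7.88 after PH, with no overlap. It rose by 1.27 ± 0.22 (adjusted p = 0.0015). Junb, a relative of Jun, gave a difference of 0.73 ± 0.19 that did not pass (adjusted p = 0.072), with its 3 arrays at 1 h above all at 0 h. It passed after median centring (0.76, adjusted p = 0.044), with array weights (adjusted p = 0.023) and with the compared groups alone (adjusted p = 0.020). With the bacterial control covariate the Junb difference was 0.43 (adjusted p = 0.72). Atf3, a stress-induced repressor of the ATF/CREB family, read 6.17, 6.25 and 6.10 at 0 h and 9.61, 9.25 and 9.08 at 1 h. The 1 h arrays were all higher by a wide margin, and the rise was 3.14 ± 0.55 (adjusted p = 0.0014). Of the 2 other Atf3 probe sets, neither passed (0.95 and -0.23).

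Egr1, a zinc finger factor of the growth factor response, was at 6.82, 7.31 and 6.70 at 0 h and at 9.87, 9.82 and 9.59 at 1 h. It rose by 2.82 ± 0.57 (adjusted p = 0.0072), and the call was lost without 1 h replicate 2 (adjusted p = 0.0504). Nr4a1, an orphan nuclear receptor induced by cAMP and growth factors, moved from 5.91, 6.02 and 6.21 to 8.34, 8.74 and 8.70. The groups were tight and did not overlap, and the rise of 2.54 ± 0.37 (adjusted p = 0.00011) passed in all fits that left out 1 array and with the control covariate. Cebpd, a C/EBP factor of the inflammatory response, read 7.27, 7.08 and 7.77 before and 9.19, 9.14 and 8.95 after PH, again without overlap. Its rise of 1.72 ± 0.40 (adjusted p = 0.031) held only in the one of the 6 fits that left out 0 h replicate 3. Its relative Cebpb, which acts in hepatocyte proliferation, gave 0.98 ± 0.26 with all 1 h arrays higher, short of the threshold (adjusted p = 0.082).

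The remaining risers of the list were 2 Krüppel-like factors. Klf6 went from 5.97, 5.86 and 5.79 to 7.24, 7.05 and 7.21. This rise of 1.29 ± 0.28 (adjusted p = 0.014) held without 0 h replicate 1 but not without any one of the 5 other arrays. Klf4 went from 4.42, 4.50 and 4.66 to 5.28, 5.52 and 5.31, a rise of 0.84 ± 0.16 (adjusted p = 0.0029) with clearly separate groups. Myc, a driver of growth genes in regenerating liver, read 5.44, 4.79 and 3.67 at 0 h and 5.41, 5.68 and 5.12 at 1 h. The groups overlapped through 0 h replicate 1, and the difference of 0.77 ± 0.38 did not pass (adjusted p = 0.50).

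The second group with many calls was the list named early feedback regulators. It holds genes that restrain kinases, RNA or growth, but also others, such as the kinase genes Sgk1 and Pim3 and the GTPase gene Rhob. Of 34 measured, 8 rose and none fell, with a median of 0.44 (0.485% of all named genes rose). In 16, every 1 h array lay above every 0 h array (6.07% of all probe sets did). Dusp6, a phosphatase that inactivates ERK, read 6.99, 7.88 and 7.88 at 0 h and 10.09, 10.18 and 9.86 at 1 h. The 1 h arrays were nearly alike, and the rise was 2.46 ± 0.40 (adjusted p = 0.00057). Its second probe set gave 0.57 and did not pass. Rcan1, an inhibitor of calcineurin, was at 7.85, 7.2 and 7.37 and then at 10.21, 9.52 and 9.78. It rose by 2.37 ± 0.26 (adjusted p = 1.6e-06), the smallest adjusted p of the comparison. Sgk1, a kinase induced by serum and glucocorticoid, read 6.38, 6.21 and 6.39 at 0 h and 7.92, 8.78 and 8.54 at 1 h. It rose by 2.08 ± 0.30 (adjusted p = 7.4e-05), with the lowest 1 h value well above the 0 h values. Each of these 3 calls held in every fit that left out 1 array and with the covariate.

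Btg2, an antiproliferative gene that also promotes mRNA deadenylation, went from 8.49, 8.68 and 8.84 to 10.57, 10.41 and 10.36. It rose by 1.78 ± 0.34 (adjusted p = 0.0040) with no overlap. Noct, a circadian gene whose product was described as a deadenylase, read 8.28, 8.11 and 8.51 at 0 h and 9.66, 9.50 and 9.97 at 1 h. This was a rise of 1.41 ± 0.20 (adjusted p = 9.8e-05). A second of its 3 probe sets rose as well, by 0.90 ± 0.20 (adjusted p = 0.020), and the third gave 0.65 and did not pass. Gadd45a, a growth arrest gene, was at 5.69, 5.71 and 5.4 and then at 7.79, 6.84 and 6.84, with replicate 1 the highest. Its rise of 1.56 ± 0.37 (adjusted p = 0.037) was lost without any one of the 6 arrays.

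The small GTPase gene Rhob rose by 1.07 ± 0.23 (adjusted p = 0.015), from 7.84 to 8.33 at 0 h to between 9.0 and 9.23 at 1 h. The kinase gene Pim3 rose by 0.97 ± 0.24 (adjusted p = 0.0495), and its call ended without any one array other than 0 h replicate 3. The call of Rhob ended without 0 h replicate 2 or 3, or 1 h replicate 1 or 2. Other members that are known early genes did not pass. Ier2 gave 1.69 ± 0.51 (adjusted p = 0.16) and Zfp36, which destabilises cytokine mRNA, 1.14 ± 0.31 (adjusted p = 0.085), both with all 1 h arrays above all 0 h arrays. Dusp1, a phosphatase for stress kinases, read 9.78, 10.29 and 8.75 at 0 h and 9.79, 10.81 and 10.38 at 1 h, with overlapping groups and a difference of 0.72 ± 0.42 (adjusted p = 0.60). Socs2, a suppressor of growth hormone signalling, was at 8.55, 8.98 and 7.30 and then at 7.16, 6.31 and 6.08. All 1 h arrays were lower, and the difference of -1.76 ± 0.48 did not pass (adjusted p = 0.091). It passed without 0 h replicate 3 (-2.25, adjusted p = 0.024) and with array weights (-2.09, adjusted p = 0.00054). With the bacterial control covariate the Socs2 difference was -1.56 (adjusted p = 0.49).

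Promoter sequences of genes that rose are shown to let the cAMP response element (CRE), the site of CREB and ATF factors, be seen in place. They are the 250 bases before the transcription start in RefSeq's annotation of GRCm38.p6, written 5′ to 3′ on the strand of the gene. A promoter was present for 36 of the 43 genes that rose and 13 of the 14 that fell. The palindromic CRE TGACGTCA, searched on both strands, lay in the promoters of 5 of the 36 (13.9%) and of none of the 13, against 1.77% of all 27025 genes. Counted by starts, it lay at 5 of 47 (10.6%) of the genes that rose and at 1.55% of all 32851. Here and below, all genes are those annotated, including genes not on the array, so the sets are not alike. The 5 genes were Btg2, Rcan1, Slc25a25, Wsb1 and Ell2. Rcan1 (1 of 2 starts), Slc25a25 (1 of 3) and Wsb1 (1 of 2) held it at only some of their annotated starts. The shorter form TGACGT, which lies within the palindrome on either strand and was added after the sequences had been seen, was in 9 of the 36 (25%), 1 of the 13 (7.69%) and 7.29% of all genes. Among them were Fos and Atf3. Capitals mark the shorter form, on either strand, in Fos and Atf3 and the palindrome alone in the 5 other genes. Ell2 also holds the shorter form outside its palindrome, nearer the start, which is not marked. The windows are Fos at chr12:85473640-85473889 (plus strand), Atf3 at chr1:191183334-191183583 (minus), Btg2 at chr1:134079156-134079405 (minus), Rcan1 at chr16:92400079-92400328 (minus), Slc25a25 at chr2:32424067-32424316 (minus), Wsb1 at chr11:79254696-79254945 (minus) and Ell2 at chr13:75707234-75707483 (plus).
Fos: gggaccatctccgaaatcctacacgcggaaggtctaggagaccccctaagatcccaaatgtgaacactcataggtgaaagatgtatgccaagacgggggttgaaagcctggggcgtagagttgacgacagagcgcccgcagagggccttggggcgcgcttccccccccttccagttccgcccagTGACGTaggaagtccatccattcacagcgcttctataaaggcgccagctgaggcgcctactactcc
Atf3: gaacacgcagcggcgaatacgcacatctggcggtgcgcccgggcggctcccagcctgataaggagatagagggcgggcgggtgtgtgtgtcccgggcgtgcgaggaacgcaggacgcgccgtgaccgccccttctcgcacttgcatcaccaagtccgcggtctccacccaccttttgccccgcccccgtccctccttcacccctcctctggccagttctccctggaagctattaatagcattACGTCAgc
Btg2: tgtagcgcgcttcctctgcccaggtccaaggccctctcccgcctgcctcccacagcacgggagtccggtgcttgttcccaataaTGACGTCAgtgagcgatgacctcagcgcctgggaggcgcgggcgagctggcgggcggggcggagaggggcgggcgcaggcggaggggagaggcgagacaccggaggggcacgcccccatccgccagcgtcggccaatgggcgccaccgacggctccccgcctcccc
Rcan1: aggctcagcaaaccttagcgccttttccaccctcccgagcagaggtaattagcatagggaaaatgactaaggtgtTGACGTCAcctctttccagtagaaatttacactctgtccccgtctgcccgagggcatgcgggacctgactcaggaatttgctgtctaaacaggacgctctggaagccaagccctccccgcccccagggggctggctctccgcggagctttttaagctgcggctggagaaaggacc
Slc25a25: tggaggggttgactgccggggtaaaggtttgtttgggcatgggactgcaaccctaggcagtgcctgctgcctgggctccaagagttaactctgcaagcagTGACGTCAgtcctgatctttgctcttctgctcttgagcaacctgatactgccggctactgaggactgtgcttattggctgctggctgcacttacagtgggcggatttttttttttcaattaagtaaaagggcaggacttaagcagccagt
Wsb1: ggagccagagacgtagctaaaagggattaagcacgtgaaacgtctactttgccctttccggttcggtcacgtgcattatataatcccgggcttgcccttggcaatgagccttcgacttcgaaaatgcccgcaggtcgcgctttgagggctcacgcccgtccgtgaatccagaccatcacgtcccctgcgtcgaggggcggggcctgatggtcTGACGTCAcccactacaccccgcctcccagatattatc
Ell2: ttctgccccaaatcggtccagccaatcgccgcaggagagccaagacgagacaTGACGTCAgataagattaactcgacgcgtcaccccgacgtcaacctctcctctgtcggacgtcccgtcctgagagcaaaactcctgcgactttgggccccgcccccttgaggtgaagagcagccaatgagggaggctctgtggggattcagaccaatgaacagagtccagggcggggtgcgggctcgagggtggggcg
Counted from the start site to the nearest base of the marked motif, the distances were 61 bases for Fos, 3 for Atf3, 159 for Btg2, 168 for Rcan1, 143 for Slc25a25, 31 for Wsb1 and 191 for Ell2. A match is a description of these letters and not evidence of binding.

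Other motifs were found in the promoters of the genes that rose at the following shares. The AP-1 site TGANTCA, which differs from the CRE by its shorter spacer, was in 4 of 36 (11.1%), against 7.82% of all genes. The CArG box of serum response factor was in 1 of 36 (2.78%), against 1.62% of all genes, and in 2 of the 13 that fell (15.4%). Among the genes that rose, the match was in Actg1. No promoter was present for Egr1, Rasd1, Thbd, Ahr, Cebpd, Slc25a51 and Mpzl2, so none of these risers was searched for any motif. Bases farther from the start than the window were not searched either. Whether genes without a match hold a site there was not tested.

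The metallothionein genes Mt1 and Mt2, which encode small proteins that bind zinc and copper, were among the genes that rose most. Mt2 read 7.79, 7.70 and 8.35 at 0 h and 12.84, 11.62 and 11.83 at 1 h. The 1 h arrays were all far higher, replicate 1 most, and the rise was 4.15 ± 0.78 (adjusted p = 0.0037). Mt1 was at 7.75, 7.81 and 8.82 and then at 12.58, 11.36 and 11.45, with replicate 1 again the highest at 1 h. It rose by 3.67 ± 0.84 (adjusted p = 0.029), a call that held without 0 h replicate 3 but not without any one of the other arrays. The 2 transcripts are close in sequence, so their probe sets may share signal. Of 21 measured genes of the metal, oxidative stress and hypoxia list these were the only 2 that passed (0.485% of all named genes rose), and the median of the list was 0.14.

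The metal response element (MRE), to which the metal-responsive factor Mtf1 binds, was searched as TGCGCNC or TGCACNC on both strands. It lay in the promoters of 11 of 36 genes that rose (30.6%), 5 of 13 that fell (38.5%) and 23.8% of all genes. The Mt1 window (chr8:94178839-94179088, plus strand) held 1 and the Mt2 window (chr8:94172368-94172617, plus strand) held 3, and both are shown with the MRE in capitals.
Mt1: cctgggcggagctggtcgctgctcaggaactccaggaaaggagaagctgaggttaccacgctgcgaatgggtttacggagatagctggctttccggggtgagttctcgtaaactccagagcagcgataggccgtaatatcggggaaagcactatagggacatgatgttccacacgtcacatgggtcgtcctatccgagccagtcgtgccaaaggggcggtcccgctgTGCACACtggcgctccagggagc
Mt2: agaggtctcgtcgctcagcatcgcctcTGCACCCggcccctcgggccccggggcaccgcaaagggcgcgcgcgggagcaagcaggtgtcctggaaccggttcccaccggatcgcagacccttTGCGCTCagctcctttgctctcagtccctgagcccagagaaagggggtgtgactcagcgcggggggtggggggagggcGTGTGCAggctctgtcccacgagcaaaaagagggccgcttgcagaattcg
The nearest base of the Mt1 match lay 17 bases before the start, and those of the Mt2 matches 217, 122 and 44 bases before it.

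3 hepatocyte genes of fasting and glucose supply rose out of 27 measured on the list of glucose, cAMP and glucocorticoid response (0.485% of all named genes rose). Igfbp1, which hepatocytes secrete when insulin is low, read 6.41, 8.39 and 7.28 at 0 h and 11.55, 11.36 and 11.25 at 1 h. The 0 h arrays were spread and the 1 h arrays alike, with a rise of 4.03 ± 0.57 (adjusted p = 7.4e-05). Its probe set carries a suffix for possible cross-hybridisation, and the second Igfbp1 probe set gave -0.16. G6pc, the last enzyme of glucose release, went from 10.21, 10.57 and 10.80 to 11.84, 12.17 and 12.43. It rose by 1.62 ± 0.30 (adjusted p = 0.0029), with no overlap. Slc25a25, a mitochondrial carrier of ATP-magnesium and phosphate, went from 10.18, 10.10 and 10.74 to 11.96, 11.81 and 11.92. It rose by 1.56 ± 0.26 (adjusted p = 0.00071). Pck1, the enzyme that commits carbon to gluconeogenesis, read 9.98, 10.32 and 10.34 at 0 h and 10.42, 10.27 and 10.41 at 1 h. The groups overlapped, and the difference was 0.15 ± 0.20 (adjusted p = 0.87). Tat, a glucocorticoid-induced enzyme of tyrosine breakdown, gave 0.72 ± 0.20 with all 1 h arrays higher (adjusted p = 0.094). Tat passed without 0 h replicate 3 (0.96, adjusted p = 0.014) and with array weights (0.85, adjusted p = 0.00034), and gave 0.47 with the bacterial control covariate (adjusted p = 0.72). The median of the list was 0.07.

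Of 36 measured genes of the NF-kB pathway and chemokines, 3 rose (0.485% of all named genes did), and the median was 0.03. Cxcl1, a chemokine for neutrophils, read 7.71, 7.13 and 6.39 at 0 h and 10.16, 9.31 and 8.93 at 1 h. It rose by 2.39 ± 0.55 (adjusted p = 0.029), and its second probe set rose by 2.80 ± 0.56 (adjusted p = 0.0069). The first call was lost without 0 h replicate 2 or 3, or 1 h replicate 1 or 2. Tnfrsf1b, a receptor of tumour necrosis factor, went from 6.42, 6.67 and 6.93 to 7.54, 7.84 and 8.03. It rose by 1.13 ± 0.20 (adjusted p = 0.0015). Il1a, an interleukin 1 cytokine, was at 5.89, 5.79 and 5.87 and then at 6.97, 6.75 and 6.86. The groups were narrow and separate, and the rise of 1.01 ± 0.14 (adjusted p = 4.3e-05) held in every fit that left out 1 array and with the covariate. The NF-kB inhibitor gene Nfkbia gave 0.51 ± 0.27 (adjusted p = 0.53) and the monocyte chemokine gene Ccl2 0.67 ± 0.62 (adjusted p = 0.79).

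Of 26 measured genes of interleukin 6 and STAT signalling, Mt2 alone rose (0.485% of all named genes did). Socs3, the STAT3-induced feedback inhibitor, read 6.68, 6.40 and 6.40 at 0 h and 6.96, 6.98 and 6.88 at 1 h. All 1 h arrays were higher, by 0.45 ± 0.31, which did not pass (adjusted p = 0.69). No gene of 23 measured on the acute phase list passed in limma (1 at an unadjusted p under 0.05), and its median was 0.23. The list was high in 1 array. Its mean level was 9.23 to 9.35 over the 0 h arrays, 10.33 in 1 h replicate 1, and 9.22 and 9.23 in 1 h replicates 2 and 3. Saa2, a serum amyloid A protein of the acute phase, read 12.40, 8.0 and 8.11 at 1 h and 7.63, 7.74 and 8.04 at 0 h. Lcn2, which sequesters bacterial siderophores, read 9.05, 5.09 and 4.92 at 1 h and 4.57, 4.94 and 4.92 at 0 h. Orm2, an acid glycoprotein of plasma, read 11.83, 8.15 and 8.15 at 1 h and 7.75, 8.02 and 7.89 at 0 h. In all 3 genes replicate 1 stood far above, while the other 1 h arrays were close to the 0 h arrays. The differences of 1.70 ± 1.07, 1.54 ± 1.16 and 1.49 ± 0.99 did not pass (adjusted p = 0.65, 0.72 and 0.68).

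Replicate 1 at 1 h also differed in other genes. Cyp7a1, which starts the classical route from cholesterol to bile acids, read 8.40, 6.78 and 6.49 at 1 h and 6.58, 7.26 and 6.52 at 0 h, so that replicate 1 alone lay above the 0 h range. The difference was 0.44 ± 0.44 (adjusted p = 0.82). In 5 of the 56 higher probe sets the 1 h and 0 h arrays overlapped, and in each replicate 1 was the array inside the 0 h range. One of them, for the lipid phosphatase gene Mtm1, read 6.09, 6.01 and 5.56 at 0 h and 5.97, 8.17 and 7.82 at 1 h. It rose by 1.43 ± 0.30 (adjusted p = 0.0099), the call was lost without 0 h replicate 3 or 1 h replicate 2 or 3, and the gene's second probe set gave 0.18. The 4 others have no gene name in the table used.

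**Figure D3:**
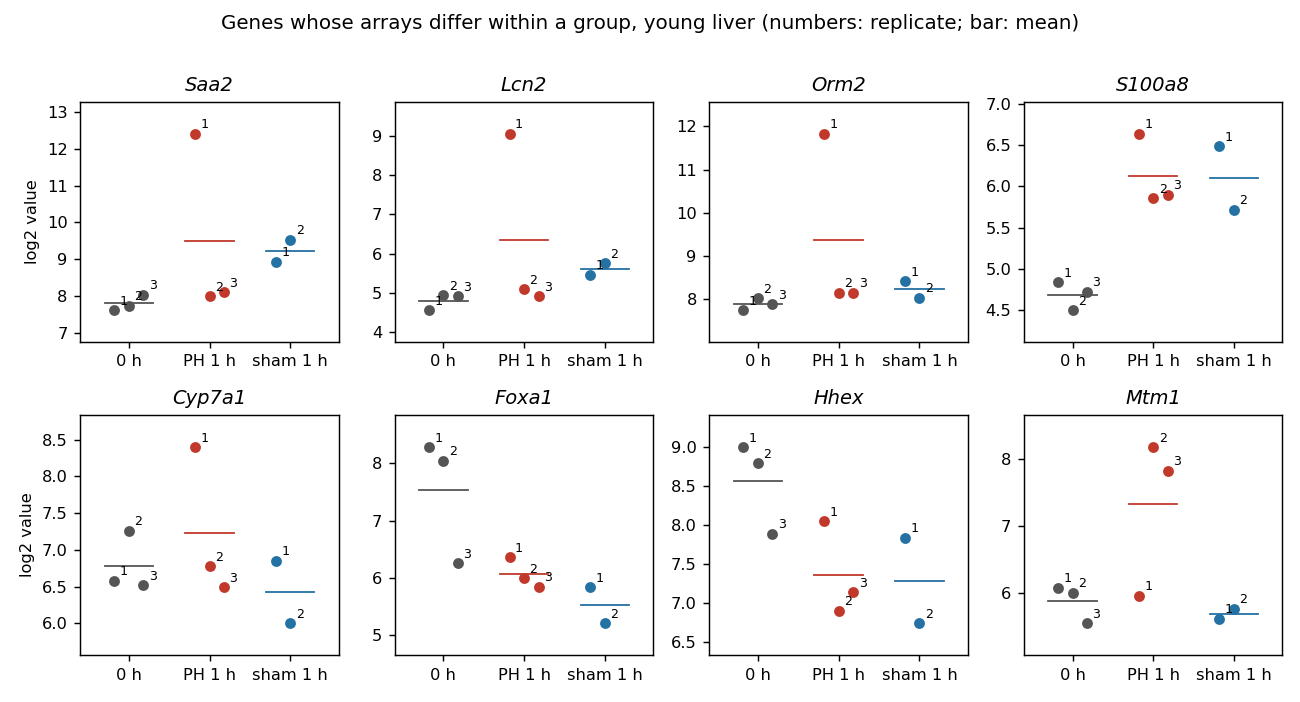
Log2 values of 8 genes in each young array at 0 h (grey), 1 h after PH (red) and 1 h after sham (blue), with the replicate number beside each point and a bar at the group mean. Replicate 1 at 1 h after PH stands alone at the top for Saa2, Lcn2, Orm2 and Cyp7a1 and at the bottom of its group for Mtm1. At 0 h, replicate 3 is the lowest array for Foxa1 and Hhex.

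Several further genes rose that belong to no single list. Ifrd1, a transcriptional coregulator induced by growth factors, went from 5.13, 5.11 and 4.95 to 7.33, 7.39 and 6.92. It rose by 2.15 ± 0.33 (adjusted p = 0.00018). Rasd1, a Ras-like GTPase gene induced by glucocorticoid, went from 4.27, 4.39 and 4.65 to 6.18, 6.48 and 6.00. It rose by 1.78 ± 0.32 (adjusted p = 0.0024), with no overlap in either gene. Ddit4, an inhibitor of mTORC1, read 5.96, 5.98 and 6.68 at 0 h and 7.85, 8.88 and 8.25 at 1 h, a rise of 2.12 ± 0.52 (adjusted p = 0.046) that was lost without any one of the 6 arrays. C9orf72, whose product acts in autophagy and membrane traffic, went from 6.18, 6.07 and 5.65 to 7.61, 7.74 and 7.58. It rose by 1.67 ± 0.23 (adjusted p = 4.5e-05), in all fits that left out 1 array.

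Genes of a receptor and of its known target both rose at 1 h, and a link between the rises was not tested. Ahr, the aryl hydrocarbon receptor, read 6.22, 6.17 and 6.08 at 0 h and 7.72, 7.78 and 7.38 at 1 h, and rose by 1.47 ± 0.31 (adjusted p = 0.013). Its call ended without 0 h replicate 2 or 3, or 1 h replicate 1 or 2. Tiparp, an ADP-ribosyltransferase known as a target of that receptor, went from 6.44, 6.51 and 6.49 to 8.24, 8.24 and 7.45. The 0 h arrays were almost identical and 1 h replicate 3 was the lowest of its group, and the rise was 1.5 ± 0.26 (adjusted p = 0.0014).

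Actg1, cytoplasmic gamma actin, was the 1 riser among 29 measured junction and cytoskeleton genes (0.485% of all named genes rose). It read 9.34, 9.39 and 9.50 at 0 h and 11.51, 11.02 and 10.85 at 1 h, a rise of 1.72 ± 0.40 (adjusted p = 0.029) lost without any one of the 6 arrays. Actb, cytoplasmic beta actin, read 8.94, 9.86 and 8.84 at 0 h and 8.0, 6.80 and 6.86 at 1 h on a probe set with a cross-hybridisation suffix. All 1 h arrays were lower, and the difference of -2.0 ± 0.51 did not pass (adjusted p = 0.060). It passed without 1 h replicate 1 (adjusted p = 0.036), with array weights (adjusted p = 0.00069) and with the compared groups alone (adjusted p = 0.024). With the bacterial control covariate the Actb difference was -0.79 (adjusted p = 0.76). Transcripts of the 2 actins are close in sequence, so their probe sets may share signal. The actin 3′ control probe set of the array did not show that order (values above). All 3 probe sets of Ell2, an elongation factor of RNA polymerase II, rose, the brightest from 9.54, 9.56 and 9.06 to 10.24, 10.45 and 10.11. Its rise was 0.88 ± 0.17 (adjusted p = 0.0049), and the call on that probe set ended without 0 h replicate 3 or 1 h replicate 2. Genes named here after their values were seen include Wsb1, a substrate receptor of a ubiquitin ligase, and Slc38a2, a transporter of neutral amino acids. Wsb1 rose by 1.56 ± 0.29 (adjusted p = 0.0029), a call lost without 1 h replicate 2. Slc38a2 rose by 1.41 ± 0.29 (adjusted p = 0.0075) on 1 of its 4 probe sets, a call lost without 0 h replicate 1 or 1 h replicate 2.

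The clearest fall was that of Foxa2, a pioneer transcription factor of liver. It read 8.83, 8.86 and 8.29 at 0 h and 7.28, 7.19 and 7.14 at 1 h, so every 1 h array was lower than every 0 h array by more than the spread within either group. It fell by 1.45 ± 0.16 (adjusted p = 1.8e-06), in every fit that left out 1 array and with the control covariate. Foxa2 was the 1 call among 28 measured liver transcription factors and nuclear receptors, where 0.158% of all named genes fell and 0.485% rose. The median of this list was -0.11, against -0.04 over all named genes. Foxa1, a relative of Foxa2, read 8.29, 8.05 and 6.26 at 0 h and 6.36, 6.00 and 5.85 at 1 h. The groups overlapped through 0 h replicate 3, and the difference of -1.46 ± 0.36 did not pass (adjusted p = 0.052). Without that array it was -2.10 (adjusted p = 0.00043). It also passed with array weights (-1.97, adjusted p = 1.0e-05) and with fewer probe sets tested: without the dimmest, without cross-hybridising ones or with 1 per gene (adjusted p = 0.045, 0.049 and 0.046). With the control covariate the Foxa1 difference was -1.33 (adjusted p = 0.35). Hhex, a homeobox factor of hepatic development, read 9.0, 8.79 and 7.89 and then 8.05, 6.90 and 7.14. Here too 0 h replicate 3 was the lowest control. The difference of -1.19 ± 0.31 did not pass (adjusted p = 0.072), but did without 0 h replicate 3 or 1 h replicate 1 (-1.53 and -1.54, adjusted p = 0.015 in both) and with array weights (-1.56, adjusted p = 0.00011). With the control covariate the Hhex difference was -1.025 (adjusted p = 0.46). Hnf4a, a central hepatocyte regulator, gave 0.11 ± 0.19 (adjusted p = 0.91) and Cebpa, a brake on hepatocyte division, -0.47 ± 0.20 (adjusted p = 0.41).

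Phlda1, which encodes a pleckstrin homology-like protein, read 10.49, 9.89 and 7.75 at 0 h and 7.55, 6.64 and 6.61 at 1 h. The groups nearly met through 0 h replicate 3 and 1 h replicate 1, and the fall by 2.44 ± 0.50 (adjusted p = 0.0082) was lost without 0 h replicate 1 or 2, or 1 h replicate 2 or 3. Sod1, the cytosolic superoxide dismutase, went from 10.64, 10.97 and 11.10 to 10.12, 9.52 and 9.54. It fell by 1.17 ± 0.26 (adjusted p = 0.018), a call lost without 0 h replicate 2 or 3, or 1 h replicate 2 or 3. The 11 other genes that fell did so by 0.38 to 0.71 on the log2 scale. They include Guk1, a guanylate kinase (-0.41 ± 0.09, adjusted p = 0.024), Gnb1, a G protein beta subunit (-0.40 ± 0.09, adjusted p = 0.018), and Kmt5a, a histone H4 methyltransferase (-0.38 ± 0.09, adjusted p = 0.024). The calls of these 3 genes were each lost without 0 h replicate 1, 1 h replicate 1 or 1 h replicate 2, and also without 0 h replicate 2 or 3 for Guk1, 0 h replicate 2 or 1 h replicate 3 for Gnb1 and 0 h replicate 3 for Kmt5a. Pdc, a gene of photoreceptors (-0.71 ± 0.17, adjusted p = 0.029), and Tnp1, a gene of spermatids (-0.67 ± 0.16, adjusted p = 0.044), were called on probe sets of a suffix class (_r_at) with relaxed design rules. The second probe set of Pdc gave -0.03. The call of Pdc held only without 1 h replicate 1 and that of Tnp1 only without 0 h replicate 1. After median centring 6 of the 14 lower genes no longer passed, Guk1, Gnb1 and Tnp1 among them.

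Most lists of other liver programmes held no call at 1 h. Over all named genes 0.485% rose and 0.158% fell, so lists of this size can lack a call at the overall share. None of 38 measured cell cycle genes passed in limma (1 at an unadjusted p under 0.05), among them Ccnd1, cyclin D1, at 0.29 ± 0.18 (adjusted p = 0.65). The list median was 0.01, and in the whole table limma's unadjusted p-value was under 0.05 for 1254 probe sets. No gene passed among 25 secreted hepatocyte proteins (median -0.11), 28 cytochrome P450 and conjugation genes (-0.02), 13 bile acid genes (-0.04), 20 genes of lipid synthesis (0.18), 32 of ribosome biogenesis (-0.12) or 26 chaperones (0.00). In these 6 lists between 1 and 4 genes had an unadjusted limma p under 0.05. Albumin, the main plasma protein, read 13.85, 14.04 and 13.72 at 0 h and 13.76, 13.69 and 13.62 at 1 h, overlapping, with a difference of -0.18 ± 0.09 (adjusted p = 0.49). Among 39 growth factor genes Igfbp1 alone rose, and Hgf, the hepatocyte growth factor, gave 0.06 ± 0.10 (adjusted p = 0.91).

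Markers of other cell types gave no call either, in short lists and with 0.485% of all named genes higher and 0.158% lower. The absence of calls thus does not set these lists apart. Of 17 measured macrophage and Kupffer cell genes none passed in limma (0 at an unadjusted p under 0.05), while the median was 0.33 and 10 had every 1 h array above every 0 h array (6.07% of all probe sets did). Their mean level was 6.62 to 6.80 at 0 h and 7.22, 6.82 and 7.05 at 1 h, and in the 2 sham arrays it was 6.54 and 6.71. Lyz2, macrophage lysozyme, read 6.20, 6.09 and 5.69 at 0 h and 7.0, 6.37 and 6.78 at 1 h, with a difference of 0.72 ± 0.41 (adjusted p = 0.60). Of 17 neutrophil genes none passed (2 at an unadjusted p under 0.05), with a median of 0.01 and a mean level of 6.03 to 6.18 at 0 h and 6.63, 6.21 and 6.23 at 1 h. S100a8, an abundant neutrophil calcium-binding protein, read 4.83, 4.50 and 4.72 at 0 h and 6.64, 5.86 and 5.90 at 1 h, all higher, with a difference of 1.45 ± 0.63 (adjusted p = 0.43). The part of such cells in the rises of Il1a, Tnfrsf1b and Cxcl1 was not tested. Endothelial (16), stellate (16), bile duct (10), lymphocyte (17) and blood (7) markers gave no call, with medians between -0.09 and 0.06 and 0, 0, 1, 2 and 0 genes at an unadjusted limma p under 0.05.

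**Figure D4:**
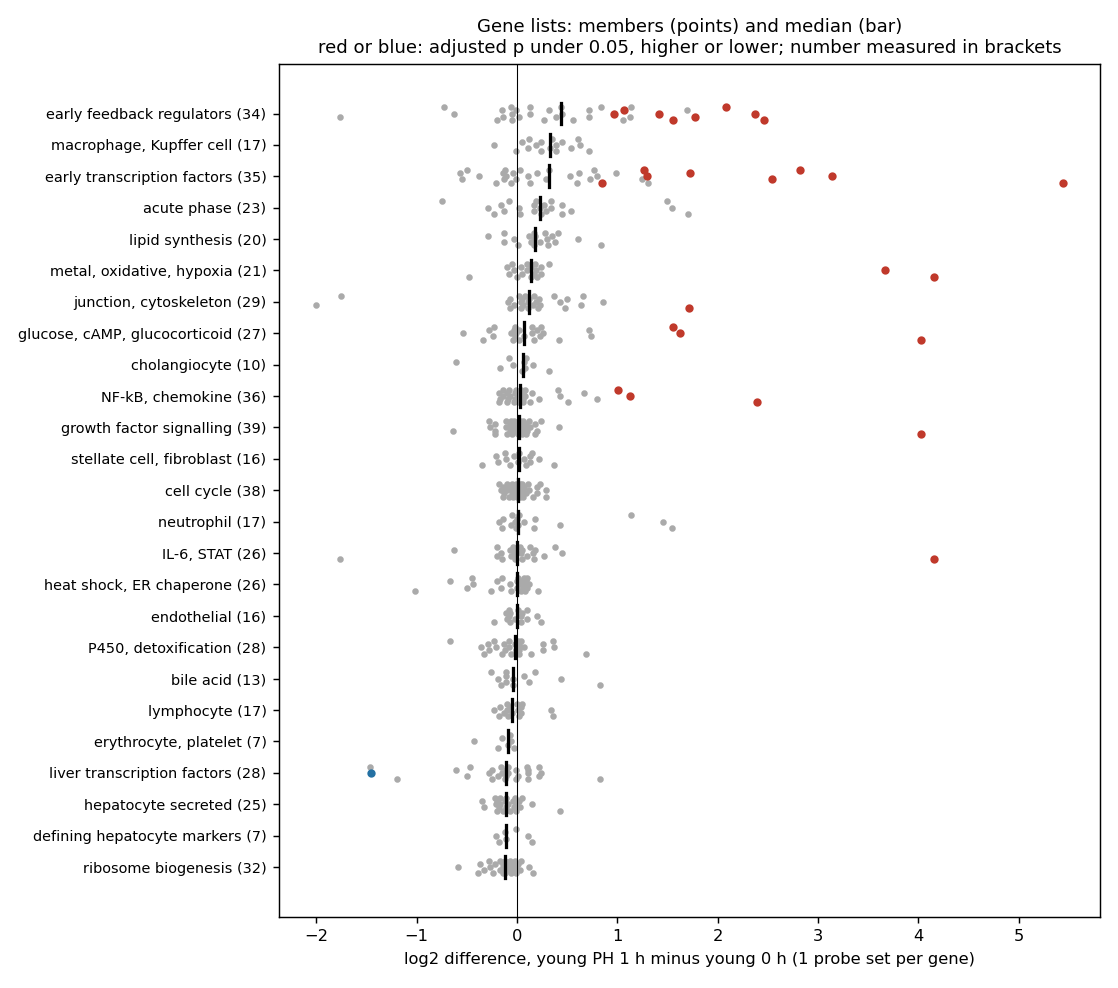
Log2 differences between young liver 1 h after PH and 0 h for the measured members of 25 gene lists, 1 probe set per gene, with the list median as a black bar. Red and blue points passed the limma threshold as higher or lower. Most red points lie in the early transcription factor and early feedback lists (8 each), and the only blue point is Foxa2.

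The sham arrays give values after anaesthesia and laparotomy without loss of liver. The sham contrasts rest on 2 sham arrays, share the 1 h PH or the 0 h arrays with the main comparison, and involve the arrays that stood apart on the first principal component. The bacterial control mean lay between 9.053 and 9.548 in all 16 sham arrays. The actin 3′ control probe set read 11.92 and 12.13 in the 2 young sham arrays at 1 h. Effects of the sham operation and of the sham arrays as a set cannot be told apart. Sham at 1 h differed from 0 h in 388 probe sets (3.12%), 215 higher (1.73%) and 173 lower (1.39%), or 269 and 134 after centring. PH differed from sham at 1 h in 1227 (9.88%), 467 higher (3.76%) and 760 lower (6.12%). Probe sets of the relaxed _r_at class made up 19.1% and 17.1% of these calls and 7.25% of those tested. Leaving out sham replicate 1 or 2, with the lone sham array then assumed to vary like the other groups, reduced the counts to 51 or 98 and to 203 or 302. Without 1 h PH replicate 2 the count against sham was 379, and without 0 h replicate 1, 2 or 3 the count for sham against 0 h was 135, 89 or 609.

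For a first set of risers the sham values lay among or next to those of PH. Igfbp1 read 11.39 and 11.41 in the sham arrays, higher than 0 h by 4.04 ± 0.64 (adjusted p = 0.00023), and PH minus sham was -0.01 ± 0.64 (adjusted p = 0.99). Mt2 read 11.44 and 12.18 after sham, 3.87 ± 0.88 above 0 h (adjusted p = 0.011), and PH minus sham was 0.29 ± 0.88 (adjusted p = 0.88). The values for Mt1 were 3.91 ± 0.94 (adjusted p = 0.018) and -0.25 ± 0.94 (adjusted p = 0.91). G6pc rose after sham by 1.73 ± 0.34 (adjusted p = 0.0027), with PH minus sham at -0.11 ± 0.34 (adjusted p = 0.88). Cxcl1 rose after sham by 2.34 ± 0.62 (adjusted p = 0.029), with PH minus sham at 0.05 ± 0.62 (adjusted p = 0.97). The call of Igfbp1 against 0 h held whichever array was left out, and its second probe set was lower after PH than after sham (-0.52 ± 0.14, adjusted p = 0.015), a call lost without 1 h PH replicate 2 or sham replicate 2. The calls against 0 h of the 4 other genes were lost without either sham array, and also without 0 h replicate 2 for Mt1, Mt2 and Cxcl1, 0 h replicate 1 for Mt1 or 0 h replicate 3 for Cxcl1. The PH minus sham differences missed the threshold, which does not show that the groups were alike.

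A second set was higher after PH than after sham. Tiparp read 6.57 and 6.76 after sham, close to 0 h, and PH exceeded sham by 1.31 ± 0.29 (adjusted p = 0.0047). Ahr read 5.90 and 6.77, below all PH arrays, with PH higher by 1.29 ± 0.35 (adjusted p = 0.017). Ell2 read 8.87 and 9.10, and PH exceeded sham by 1.28 ± 0.19 (adjusted p = 5.0e-05). These 3 genes had sham values near or below those at 0 h. Rasd1 (1.21 ± 0.36, adjusted p = 0.030), Sgk1 (1.13 ± 0.33, adjusted p = 0.028), Ifrd1 (1.13 ± 0.37, adjusted p = 0.044), Rcan1 (0.99 ± 0.29, adjusted p = 0.027), C9orf72 (0.82 ± 0.26, adjusted p = 0.037) and Il1a (0.70 ± 0.15, adjusted p = 0.0041) were also higher after PH. The macrophage list had a median of 0.46 for PH minus sham. Of its 17 genes 1 passed as higher, where 3.76% of all probe sets did, so this count does not set the list apart. The gene was Ctss, a lysosomal protease of macrophages, at 1.34 ± 0.38 (adjusted p = 0.022). The call of Ctss was lost without either sham array, without PH replicate 1 or 2, and with the covariate, and the part of macrophages in the difference of Il1a was not tested. Rcan1 had risen after sham as well, by 1.38 ± 0.29 (adjusted p = 0.0059), so its 2 sham arrays, at 9.0 and 8.70, lay between 0 h and PH, a call lost without sham replicate 1 or 0 h replicate 2. The call of Ell2 against sham held whichever array was left out, and the 8 others were lost without sham replicate 1. Without sham replicate 2 those of Rasd1, Sgk1, Ifrd1, Rcan1 and C9orf72 were lost too. Without PH replicate 1 those of Rasd1, Ifrd1, Rcan1 and C9orf72 were lost, without replicate 2 those of Ahr, Rasd1, Sgk1, Ifrd1 and C9orf72, and without replicate 3 those of Sgk1 and C9orf72. With the bacterial control covariate Tiparp and Ell2 alone of the 9 still passed.

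Of the 8 early transcription factors that rose after PH, Fos, Egr1 and Nr4a1 also passed for sham against 0 h. Atf3 (2.10 ± 0.61, adjusted p = 0.051), Cebpd (0.97 ± 0.45, adjusted p = 0.25), Klf6 (0.76 ± 0.31, adjusted p = 0.18), Jun (0.57 ± 0.25, adjusted p = 0.21) and Klf4 (0.24 ± 0.17, adjusted p = 0.52) did not. Fos read 8.56 and 6.92 after sham, 3.65 ± 1.02 above 0 h (adjusted p = 0.041) and 1.8 ± 1.02 below PH, the latter short of the threshold (adjusted p = 0.28). Egr1 read 9.66 and 9.14, a rise of 2.46 ± 0.63 (adjusted p = 0.026), with PH minus sham at 0.36 ± 0.63 (adjusted p = 0.77). Nr4a1 read 7.26 and 7.83, a rise of 1.5 ± 0.42 (adjusted p = 0.041), with PH minus sham at 1.05 ± 0.42 (adjusted p = 0.11). Both sham arrays of Nr4a1 were below all 3 PH arrays. Among genes that fell, Foxa2 read 8.15 and 7.67 after sham, lower than 0 h (-0.75 ± 0.18, adjusted p = 0.019) and higher than PH (PH minus sham -0.71 ± 0.18, adjusted p = 0.014). Phlda1 and Foxa1 were lower after sham than at 0 h, with differences of -2.80 ± 0.56 (adjusted p = 0.0037) and -2.0 ± 0.41 (adjusted p = 0.0045). The calls against 0 h were lost without any one array for Fos, without either sham array or 0 h replicate 1 or 2 for Egr1 and Nr4a1, without sham replicate 2 for Foxa2, Phlda1 and Foxa1, and without 0 h replicate 1 or 2 for Foxa2. Foxa2 against sham was lost without PH replicate 2, sham replicate 1 or with the covariate. Sod1 read 11.69 and 11.74 after sham, above all 0 h arrays, and PH minus sham was -1.99 ± 0.29 (adjusted p = 3.2e-05).

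The 0.5 h and 2 h arrays place the 1 h values in time. Between 0.5 h and 1 h after PH, 81 probe sets changed (0.652%), 28 higher (0.225%) and 53 lower (0.427%), or 23 and 24 after centring. Tiparp read 6.49, 6.35 and 6.60 at 0.5 h, near its 0 h values, and was higher at 1 h by 1.5 ± 0.26 (adjusted p = 0.0032). C9orf72 read 6.06, 6.07 and 6.11, again near the 0 h values, and was higher at 1 h by 1.56 ± 0.23 (adjusted p = 0.0011). Rasd1, at 4.61, 4.57 and 4.48, was higher at 1 h by 1.67 ± 0.32 (adjusted p = 0.0083). Each of these 3 genes was thus near its control values at 0.5 h. Nr4a1 and Rcan1 were intermediate at 0.5 h (6.93 to 7.13 and 8.0 to 8.99) and higher at 1 h by 1.56 ± 0.37 (adjusted p = 0.042) and 1.29 ± 0.26 (adjusted p = 0.012). Egr1 read 9.56, 9.55 and 9.76 at 0.5 h, already above all 0 h arrays, and 1 h minus 0.5 h was 0.14 ± 0.57 (adjusted p = 0.96). Foxa2 read 8.11, 8.09 and 8.27 at 0.5 h and fell by 0.95 ± 0.16 by 1 h (adjusted p = 0.0032). The calls of C9orf72 and Foxa2 held whichever array was left out. That of Tiparp was lost without 1 h replicate 2, that of Rasd1 without 1 h replicate 2 or 0.5 h replicate 3, that of Rcan1 without 0.5 h replicate 2 or 1 h replicate 3, and that of Nr4a1 without any array but 1 h replicate 1.

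Between 1 h and 2 h, 127 probe sets changed (1.02%), 75 higher (0.604%) and 52 lower (0.419%). Gadd45b, a stress-induced growth arrest gene, read 6.82, 6.81 and 6.82 at 0 h, 7.16, 7.23 and 6.86 at 1 h and 9.0, 8.24 and 7.84 at 2 h. It was barely above control at 1 h and rose by 1.28 ± 0.20 from 1 h to 2 h (adjusted p = 0.00083). Ets2, a Ras-responsive transcription factor, rose by 1.43 ± 0.22 (adjusted p = 0.00083) and Maff, a small Maf factor, by 1.22 ± 0.23 (adjusted p = 0.0061) in the same hour, and neither had passed at 1 h (0.60 and 0.80 above 0 h). C9orf72 rose further, by 0.99 ± 0.23 (adjusted p = 0.029). Fos, at 8.84, 8.38 and 7.48 at 2 h, was below all 1 h arrays, with a difference of -1.30 ± 0.92 that did not pass (adjusted p = 0.53). The Mtm1 probe set that was high in 1 h replicates 2 and 3 read 5.32, 5.54 and 5.69 at 2 h, a change of -1.8 ± 0.30 (adjusted p = 0.0014). The calls of Gadd45b, Ets2 and Mtm1 from 1 h to 2 h held whichever array was left out. That of Maff was lost without 1 h replicate 2 or 2 h replicate 1, and that of C9orf72 without 1 h replicate 2 or 3 or 2 h replicate 1 or 2. Both counts moved with single arrays. Against 0.5 h the count was 10 without 1 h replicate 2, 18 without 1 h replicate 3, 126 without 1 h replicate 1, 32, 31 and 15 without 0.5 h replicates 1, 2 and 3, and 0 with the bacterial control covariate. From 1 h to 2 h it was 13, 20 and 282 without 1 h replicates 2, 3 and 1, and 20 and 33 without 2 h replicates 1 and 2.

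**Figure D5:**
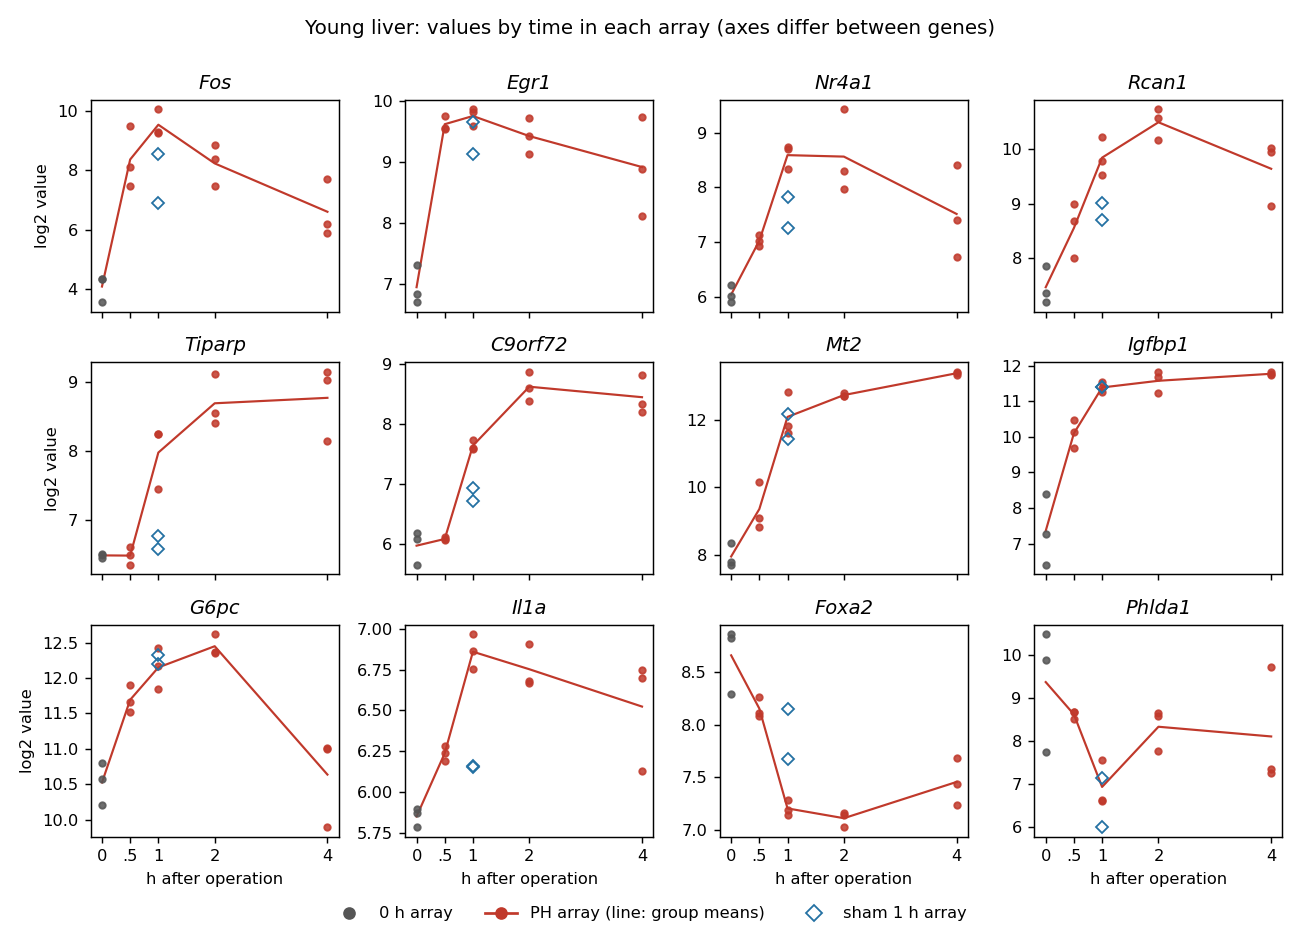
Log2 values of 12 genes in each young array against time after the operation in h, with 0 h arrays in grey, PH arrays in red joined through their group means, and the 2 sham arrays at 1 h as blue diamonds. The vertical axes differ between genes. Egr1 is near its highest level at 0.5 h, Tiparp and C9orf72 leave their 0 h values only at 1 h, and Foxa2 and Phlda1 are lower at 1 h.

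In old mice the same contrast was taken to ask whether the 1 h change differed with age. No probe set passed for the difference between the old and the young change by limma at adjusted p under 0.05 (0% called, smallest adjusted p = 0.709), and 607 had an unadjusted p under 0.05. Fos read 6.69, 4.83 and 4.93 at 0 h and 9.48, 7.76 and 9.36 at 1 h in old mice, and the old change minus the young change was -2.06 ± 1.30 (adjusted p = 0.996). For Foxa2 the old arrays read 8.09, 8.50 and 8.17 and then 7.2, 7.87 and 7.39, lower after PH in all, and the difference between ages was 0.69 ± 0.23 (adjusted p = 0.984). Socs2 read 5.93, 6.51 and 6.59 at 0 h and 6.06, 7.72 and 7.78 at 1 h in old mice, where young arrays were lower at 1 h. Its difference between ages was 2.6 ± 0.67 (adjusted p = 0.851). For Mtm1, one of the genes with the smallest p-values, the difference was -1.74 ± 0.42 (adjusted p = 0.709), and without young 1 h replicate 1 it was -2.42 (adjusted p = 3.3e-06). Without young 1 h replicate 1, 8 probe sets passed, without old 1 h replicate 2, 3 passed, and without old 0 h replicate 1, 1 passed.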

How the data were processed

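Livers of 46 labelled samples in 18 groups were hybridised to 1 array each, and the 6 young arrays at 0 h and 1 h after PH are the subject. The deposited values are log2 expression values per probe set, which the authors made with RMA according to the submitters' processing notes. The RMA version is not given in the sources used here, nor is the set of arrays normalised in one run. RMA sets all arrays to a like distribution, so a change in total RNA per cell does not appear in the values. Of 12488 probe sets, 66 array controls were left out. Symbols came from GEO's platform annotation: 10833 probe sets had 1 symbol, 396 several and 1193 none, and 16 symbols were absent from the current gene table. Probe sets with several symbols named no gene.

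All 18 group means were fitted to the 46 arrays in limma 3.58.1 (R 4.3.3) with lmFit and eBayes (28 residual degrees of freedom), and p-values were adjusted over 12422 probe sets by Benjamini and Hochberg. The fit was tested on simulated data. For list counts a gene was given by the probe set with the highest mean over all arrays. Control probe sets were compared by an exact two-sided permutation test.

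The rule for named genes took the 15 highest and 15 lowest genes past the threshold, up to 6 members of each list past it or the 3 largest differences where none passed, up to 8 genes in each direction in side comparisons, the 10 genes with the smallest p-values for age, and a set of well-known liver genes. Members and lists were chosen with earlier results of these data known, and Klf4, Rhob, Pim3, Wsb1, Slc38a2, Rcl1, Wdr92 and 1700017B05Rik, outside the rule, were named after their values were seen. Alternatives were median centring, filters on dim or cross-hybridising probe sets, 1 probe set per gene, trend and robust eBayes, array weights, the bacterial control mean as a covariate, fewer arrays in the fit, each array left out in turn and the replicate number as a block. Promoters are RefSeq's, on GRCm38.p6. Arrays give no read depth, and their number limits the precision: the median standard error of the main difference was 0.11.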

Additional observations from a re-analysis of the deposited data

How the results depend on the processing

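Of the calls for single genes in all comparisons, none reversed direction. Array weights kept all 133, a filter on the dimmest 25% all 128 that it left in, median centring 122 of 133, trend and robust eBayes 118 of 133, and the bacterial control covariate 64 of 133. Trend and robust eBayes ended the main calls of Mt1, Cxcl1, Ddit4, Gadd45a, Cebpd, Actg1 and Pim3. Main differences that had not passed did so with array weights for Actb, Cebpb, Foxa1, Hhex, Ier2, Junb, Maff, Nfkbia, Socs2, Tat and Zfp36, and with the compared groups alone for Actb, Ccl2, Cebpb, Ier2, Junb, Maff, S100a8 and Zfp36. Of other comparisons, PH minus sham passed for Nr4a1 with either setting and for Fos with the compared groups alone, and the age difference passed with weights for Mtm1 and Socs2. Signs turned only for differences that had not passed. PH minus sham became 0.0013 for Igfbp1 after centring, -0.51 for Egr1 with the covariate, and -0.15 with weights and -0.016 with the block for Cxcl1. With 1 array left out it ranged from -0.097 to 0.055 for Igfbp1, -0.085 to 0.65 for Mt2, -0.64 to 0.054 for Mt1, -0.25 to 0.042 for G6pc and -0.29 to 0.32 for Cxcl1. PH minus 0 h ranged from -0.15 to 0.80 for Cyp7a1 and from -0.075 to 0.25 for Hnf4a, and Egr1 at 1 h minus 0.5 h became -1.08 with the covariate. Calls in the main comparison were 71 and became 873 with array weights, 20 with the covariate, 122 with the compared groups alone, 44 at an absolute difference of at least 1 and 33 to 66 with 1 array left out. PH against sham gave 1227, and then 731 with 1 probe set per gene, 768 without cross-hybridisation suffixes, 3168 with weights, 563 with the covariate, 72 at a difference of at least 1 and 203 to 994 with 1 array left out. Sham against 0 h gave 388, and then 219 with 1 probe set per gene, 194 without suffixes, 2377 with weights, 48 at a difference of at least 1 and 51 to 609 with 1 array left out. From 0.5 h to 1 h there were 81, and then 47 after centring, 1477 with weights, 0 with the covariate, 29 without the sham arrays in the fit, 238 with the compared groups alone, 21 at a difference of at least 1 and 10 to 126 with 1 array left out. From 1 h to 2 h there were 127, and then 1404 with weights, 50 without the sham arrays in the fit, 49 with the compared groups alone, 16 at a difference of at least 1 and 13 to 282 with 1 array left out. The difference between ages gave 0, and then 10 with weights and 0 to 8 with 1 array left out. The cause of these shifts was not tested. The difference in the bacterial control mean, 1 h minus 0 h, was -1.35 with all arrays and ranged from -1.69 to -0.87 when 1 array was left out.

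Arrays share replicate numbers across groups. Same-numbered 0 h and 1 h arrays deviated together with correlations of -0.144, 0.022 and 0.125, and were not treated as pairs. With the replicate number as a block the counts were 74, 1038, 350, 87, 146 and 0 in the order above, and 128 of 133 calls for single genes were kept. The block ended the main calls of Pim3 (adjusted p = 0.062) and Tnp1 (0.059) and the sham call of Nr4a1 (0.054), and Actb (0.049), Foxa1 (0.039) and Hhex (0.0072) passed with it. It also ended the calls of Nfil3 and Usp2 from 0.5 h to 1 h (0.057 each).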
